A study of Mus musculus with 12 samples.

Results

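Rab GTPases are small GTP-binding proteins that give each membrane compartment of a cell its identity, and 54 of the 16579 genes measured here belong to them. The members were the mouse genes whose symbol is Rab followed by a number and at most 1 letter from a to d, each represented by its probe set of highest mean. Each of 12 Affymetrix arrays, in 4 groups of 3, gives the polysome-bound mRNA of mouse oocytes, that is, the transcripts found on strings of ribosomes and read as those in translation. Wild-type and Areg -/- mice, both labelled C57BL/6J 129Sv, received PMSG, which makes follicles grow, and hCG, a stand-in for the ovulatory hormone surge, 48 h later. Germinal vesicle (GV) oocytes, arrested in meiotic prophase, were taken at 0 h of hCG and metaphase II (MII) eggs at 14 h. Areg encodes amphiregulin, an EGF-family ligand that follicle cells release after the hormone surge, and the series asks whether its loss alters the translational program of the oocyte. Neither the age of the mice nor the number of animals or oocytes per sample is stated in the labels, so the tests weigh differences against the spread over 3 samples a group, which may in part be technical.

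A Rab protein carries a lipid tail and cycles between a GDP-bound form, which the protein GDI keeps soluble in the cytosol, and a GTP-bound form on a membrane. Exchange factors (GEFs) load GTP, GTPase-activating proteins (GAPs, most with a TBC domain) switch the Rab off, and effectors such as tethers and motors bind the GTP form and move, dock or fuse vesicles. In mouse oocytes Rab11a-positive vesicles organise the actin network that moves the spindle, and Rab3a and Rab27a act in the release of cortical granules, the secretory granules whose discharge blocks further sperm. The oocyte stops making mRNA before it matures, so the proteins made on the way to MII come from stored transcripts that are recruited to ribosomes or released from them.

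Values are log2 intensities, and each set of values is given in the order of arrays 1, 2 and 3. A change is MII minus GV on the log2 scale with limma's standard error (SE), and a gene was called when its adjusted p, by Benjamini-Hochberg over all genes, was under 0.05. Of the 54 Rab genes, 30 had a mean above that of the median gene, 5.93, and 24 did not. There was no detection call. Where signal is ranked, to choose genes or to place marker lists, the rank is of probe sets and not of transcript amounts. With no measurement of unfractionated RNA used here, ribosome loading and the amount of transcript cannot be told apart.

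Several array properties moved with stage. The interquartile range of all log2 values was 4.37 ± 0.35 at GV and 3.82 ± 0.32 at MII in wild type, and 4.55 ± 0.14 and 3.58 ± 0.37 in the knockout (SD, n = 3 arrays). The 3′ minus 5′ signal of the Actb control probe sets was 0.37 ± 0.81, -1.17 ± 0.18, 0.05 ± 0.56 and -0.77 ± 0.37 in the same order, and that of the Gapdh control probe sets was 2.00 ± 0.31, 3.23 ± 0.48, 2.48 ± 0.75 and 2.71 ± 0.61. Areg itself was low in every group, with means from 2.36 to 2.72, which leaves the genotype labels unchecked. Of the marker lists, the median of 12 oocyte genes lay at the 99.2 percentile of all genes, that of 18 cumulus and granulosa cell genes at 26.0 and that of 11 blood, vessel and stroma genes at 36.5. The median cumulus and granulosa marker ranged over arrays from 4.23 to 4.50 in wild-type GV, 3.99 to 4.53 in wild-type MII, 3.98 to 4.99 in knockout GV and 4.12 to 4.79 in knockout MII. Single members of these lists moved with stage: in wild type Cyp19a1 rose by 2.13 (limma adjusted p = 0.00244) and Hsd17b1 fell by 2.85 (adjusted p = 0.00476), and in the knockout Kitl rose by 1.63 (adjusted p = 0.0219) and Hsd17b1 fell by 2.39 (adjusted p = 0.0122), which makes 1 risen and 1 fallen of 18 in each genotype. Of the 11 blood, vessel and stroma genes Pecam1 rose by 1.59 (limma adjusted p = 0.00731) and C1qb fell by 2.68 (adjusted p = 0.00422) in wild type. In the knockout Emcn, Lyz2 and Acta2 rose, by 1.18, 0.95 and 0.66, and C1qb fell by 2.88 (limma adjusted p from 0.00279 for C1qb to 0.0475 for Lyz2). Of the 12 oocyte genes 5 fell and 2 rose in wild type (41.7% and 16.7%). In the knockout 6 of them fell and 2 rose (50% and 16.7%). The cumulus and granulosa shares were 5.56% each way in each genotype. Those of the blood, vessel and stroma list were 9.09% each way in wild type, and 27.3% higher and 9.09% lower in the knockout. Of all genes 8.97% rose and 12.6% fell in wild type, and 13% rose and 15.2% fell in the knockout. In these bulk samples fewer cells of a type and less RNA per cell cannot be told apart. The part of these properties in the Rab results was not tested beyond the fits with array spread as a covariate and without the 4 arrays of narrowest spread (knockout MII 2 and 3, wild-type MII 1 and 2), called the covariate fit and the fit without the narrowest arrays from here on. Because spread moved with stage and these 4 arrays are all MII, neither fit can cleanly separate array spread from stage. The fit without the narrowest arrays keeps 1 array in each MII group. In both fits a lost call need not mean a smaller change.

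From GV to MII the Rab genes split by member, with most called genes lower in the egg, as among all genes. That lean was not kept in wild type after further quantile normalisation or in the covariate fit, nor in the knockout after further quantile normalisation. Wild type called 16 of 54, where 21.6% of all genes were called, and the knockout called 18, where 28.2% were. In wild type 10 fell and 6 rose, against 12.6% of all genes lower and 8.97% higher. In the knockout 12 fell and 6 rose, against 15.2% of all genes lower and 13% higher. As shares of the 54 members, 18.5% fell and 11.1% rose in wild type, and 22.2% fell and 11.1% rose in the knockout. After a further quantile normalisation the split was 5 lower and 8 higher in wild type and 7 and 7 in the knockout, and that step moved the median change of all genes from 0.20 to 0.12 in wild type and from 0.30 to 0.17 in the knockout. With the spread of each array as a covariate 4 fell and 6 rose in wild type, while 2 fell and 1 rose in the knockout. Leaving out wild-type GV array 1 left 9 wild-type calls and leaving out wild-type GV array 2 left 10. In the knockout 10 calls were left without GV array 1, without GV array 2 or without MII array 2. The all-gene shares lower and higher in these refits are not given here. Whether the moved split and counts are particular to Rab genes therefore cannot be read from them. The median Rab change was 0.19 in wild type, beside 0.20 over all genes, and 0.03 in the knockout, beside 0.30. Every called Rab gene kept its direction when the median change of all genes was subtracted.

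Both genotypes called 12 Rab genes, all in the same direction. Rab1a, Rab1b, Rab3b, Rab3d, Rab4a, Rab8a, Rab22a, Rab29 and Rab38 fell in both, so 9 of 54 or 16.7%, where 10.6% of all genes did. Rab8b, Rab23 and Rab31 rose in both, so 3 of 54 or 5.56%, where 5.69% of all genes did. Either genotype called 22 Rab genes, 40.7% of them against 33.4% of all genes, and 0 were called in opposite directions. Across the 54 genes the changes in the 2 genotypes had the same sign for 42 and a Pearson correlation of 0.848 (Spearman 0.807), beside a Pearson correlation of 0.855 across all genes. Genes within an array are not independent replicates, and these correlations are descriptions.

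**Figure D1:**
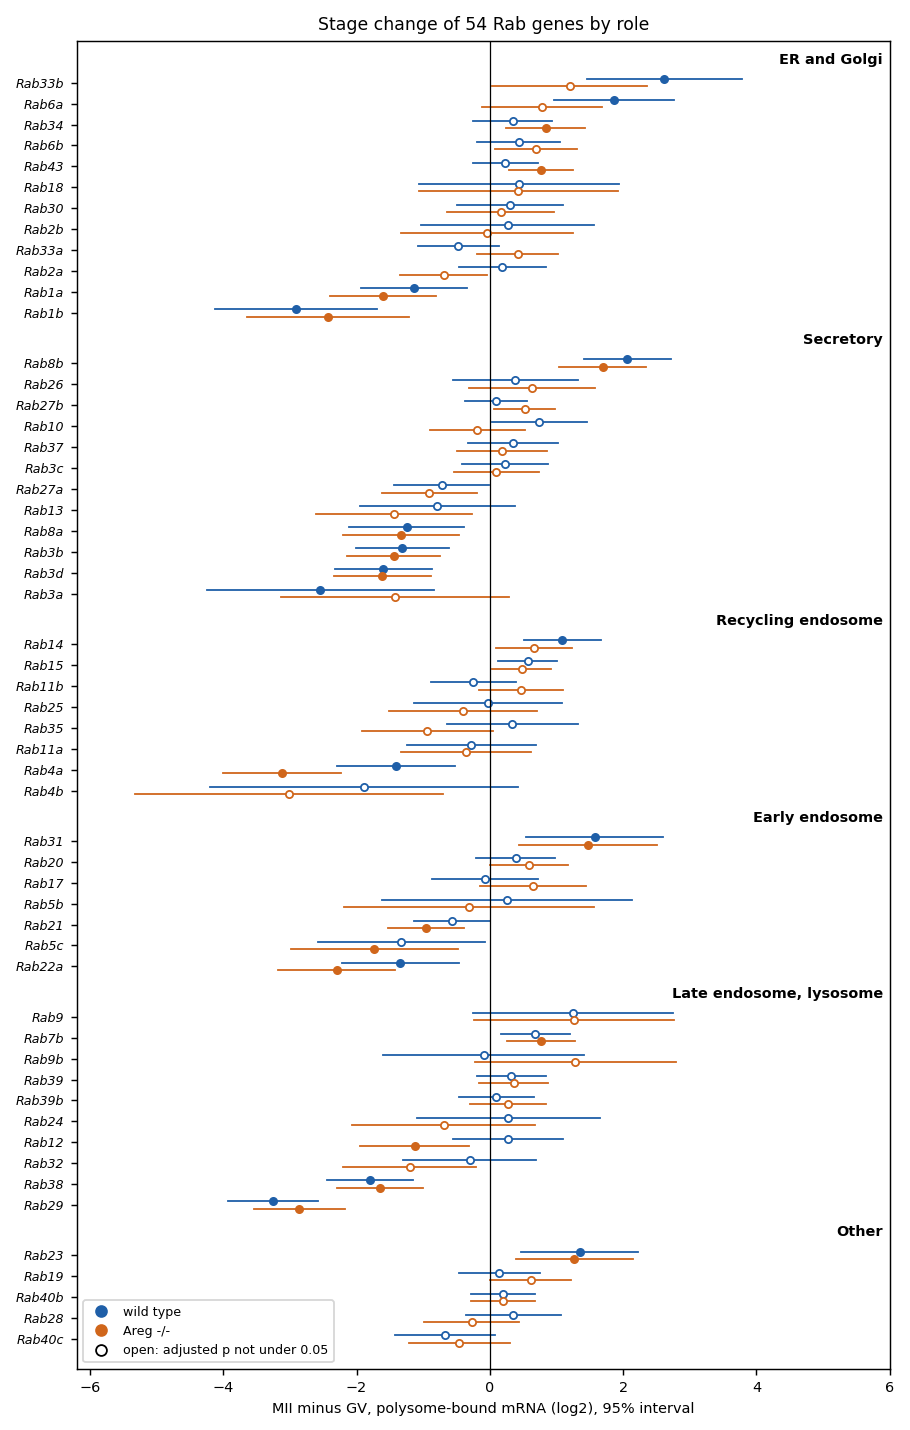
Change in polysome-bound mRNA from GV to MII (log2, x axis) with its 95% interval for each of the 54 Rab genes, grouped by compartment, in wild type (blue) and Areg -/- (orange); filled points have an adjusted p under 0.05. The longest fall in wild type is that of Rab29, at -3.25, and in the knockout that of Rab4a, at -3.12, and the longest rise is that of Rab33b in wild type, at 2.62.

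There are 12 measured members that act between the endoplasmic reticulum (ER) and the Golgi, of which 2 rose and 2 fell in each genotype. These were 16.7% each way, beside 8.97% of all genes higher and 12.6% lower in wild type and 13% and 15.2% in the knockout. Each compartment holds few genes, so the shares of a compartment rest on single members. Rab1a and Rab1b, the near-identical GTPases of ER-to-Golgi transport, were those that fell. Rab1b stood at 8.85, 11.05 and 9.49 in wild-type GV, 5.96, 7.09 and 7.60 in wild-type MII, 10.01, 9.44 and 9.82 in knockout GV and 7.04, 7.11 and 7.83 in knockout MII. All 6 GV arrays lay above all 6 MII arrays. Rab1b fell by 2.91 (SE 0.55, 7.54-fold, limma adjusted p = 0.00322) in wild type and by 2.43 (SE 0.55, 5.39-fold, adjusted p = 0.00867) in the knockout. Rab1b lost its wild-type call without the narrowest arrays, at -2.20, and its knockout call there, at -2.72, and in the covariate fit, at -2.46. Rab1a stood at 9.03, 8.92 and 8.57 in wild-type GV, 8.22, 7.71 and 7.18 in wild-type MII, 9.14, 9.57 and 8.42 in knockout GV and 7.42, 7.05 and 7.86 in knockout MII. Here too the GV arrays all lay above the MII arrays, the nearest being 8.42 in knockout GV and 8.22 in wild-type MII. Rab1a fell by 1.14 (SE 0.36, 2.20-fold, limma adjusted p = 0.0455) in wild type and by 1.60 (SE 0.36, 3.04-fold, adjusted p = 0.00855) in the knockout. The wild-type call of Rab1a did not hold, at -1.27 to -0.87, when wild-type GV array 1, 2 or 3, wild-type MII array 2 or 3, knockout GV array 1 or knockout MII array 1 was left out. It was lost too with trended and robust variances and with the comparison's own groups alone, both at -1.14, after further quantile normalisation, at -0.69, in the covariate fit, at -0.99, and without the narrowest arrays, at -1.66. The knockout call of Rab1a was lost in the last 3 of these settings, at -0.97, -1.35 and -1.63.

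Rab6a and Rab33b, both of the Golgi, rose in wild type. Rab6a, which drives transport within and out of the Golgi, stood at 9.15, 8.88 and 8.06 in wild-type GV, 11.13, 10.22 and 10.35 in wild-type MII, 9.26, 9.64 and 9.64 in knockout GV and 10.75, 10.67 and 9.46 in knockout MII. The wild-type stages did not overlap, while knockout MII array 3 lay among the knockout GV arrays. Rab6a rose by 1.87 (SE 0.41, 3.65-fold, limma adjusted p = 0.00722) in wild type, and its change of 0.78 in the knockout (SE 0.41, adjusted p = 0.158) was not called. Rab33b, which also acts in the building of autophagosomes, went from 5.98 ± 0.36 to 8.59 ± 0.75 in wild type and from 7.22 ± 0.96 to 8.42 ± 0.66 in the knockout (SD, n = 3). Its wild-type rise was 2.62 (SE 0.53, 6.13-fold, limma adjusted p = 0.00466), and the knockout change was 1.20 (SE 0.53, adjusted p = 0.104). After the further quantile normalisation the knockout changes of both passed, at 1.29 for Rab6a and 1.79 for Rab33b. Both wild-type calls were lost without the narrowest arrays, at 1.65 for Rab6a and 2.35 for Rab33b. The difference between the genotypes' stage changes was -1.09 for Rab6a (95% interval -2.36 to 0.19) and -1.42 for Rab33b (-3.06 to 0.23), with limma adjusted p = 0.943 for each.

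Rab43 and Rab34, both tied to the Golgi, had low signal and rose in the knockout. Rab43 went from 4.55 ± 0.24 to 5.32 ± 0.13 there (SD, n = 3), a change of 0.77 (SE 0.22, limma adjusted p = 0.0262), beside 4.72 ± 0.17 and 4.95 ± 0.22 in wild type, a change of 0.23 (adjusted p = 0.48). Rab34 went from 4.88 ± 0.40 to 5.72 ± 0.36 in the knockout, a change of 0.84 (SE 0.27, limma adjusted p = 0.0394), beside 4.88 ± 0.24 and 5.22 ± 0.03 in wild type, a change of 0.35 (adjusted p = 0.393). These were 1.70-fold and 1.79-fold rises. Over all genes not above the median gene the median change in the knockout was 0.46. The Rab43 call was lost without knockout GV array 1 or 2 or knockout MII array 2 or 3, at 0.66 to 0.77. The Rab34 call was lost without wild-type GV array 1, wild-type MII array 1 or 3, knockout GV array 2 or 3 or knockout MII array 2 or 3, at 0.64 to 0.91. With the replicate number as a block Rab34 stayed at 0.84 with a limma adjusted p of 0.0543. Both calls were lost with the comparison's own groups alone, at 0.77 for Rab43 and 0.84 for Rab34, and after further quantile normalisation, at 0.53 and 0.76. The covariate fit gave 0.47 and 0.83 and the fit without the narrowest arrays 0.64 and 0.58, again with no call.

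The 12 secretory members include the Rab3 proteins of regulated exocytosis and the Rab8 proteins that carry Golgi vesicles to the cell surface. Of these, 4 fell and 1 rose in wild type, and 3 fell and 1 rose in the knockout. In wild type that is 33.3% lower and 8.33% higher, beside 12.6% and 8.97% of all genes. In the knockout it is 25% lower and 8.33% higher, beside 15.2% and 13%. Rab3d stood at 10.72, 10.72 and 10.33 in wild-type GV, 8.99, 8.50 and 9.48 in wild-type MII, 10.41, 11.26 and 10.96 in knockout GV and 9.31, 8.85 and 9.65 in knockout MII. The GV arrays all lay above the MII arrays. Rab3d fell by 1.60 (SE 0.33, 3.03-fold, limma adjusted p = 0.00515) in wild type and by 1.61 (SE 0.33, 3.06-fold, adjusted p = 0.00494) in the knockout. Rab3d lost its wild-type call without the narrowest arrays, at -1.11, and the knockout call in the covariate fit, at -1.06. Rab3b stood at 9.82, 9.50 and 9.05 in wild-type GV, 7.98, 8.07 and 8.38 in wild-type MII, 10.07, 10.27 and 10.07 in knockout GV and 8.29, 9.39 and 8.40 in knockout MII. Stages were apart within each genotype, but knockout MII array 2, at 9.39, lay above wild-type GV array 3, at 9.05. Rab3b fell by 1.31 (SE 0.32, 2.49-fold, limma adjusted p = 0.012) in wild type and by 1.44 (SE 0.32, 2.72-fold, adjusted p = 0.00726) in the knockout, and the wild-type call was lost without wild-type GV array 1, at -1.13. Both calls of Rab3b were lost after further quantile normalisation, at -0.92 and -0.88, and in the covariate fit, at -1.28 and -1.38, and the wild-type call also without the narrowest arrays, at -1.08.

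Rab3a, which takes part in cortical granule release, was the least even of the Rab3 genes. It stood at 10.01, 9.77 and 9.65 in wild-type GV, 8.15, 7.14 and 6.49 in wild-type MII, 10.07, 9.80 and 9.86 in knockout GV and 10.30, 8.79 and 6.37 in knockout MII. Knockout MII array 1 lay above all GV arrays while knockout MII array 3 was the lowest of the 12. Rab3a fell by 2.55 in wild type (SE 0.77, 5.84-fold, limma adjusted p = 0.0371), and the knockout change of -1.42 (SE 0.77, adjusted p = 0.171) was not called. Without knockout MII array 1 the knockout change was -2.33 and was called, and it turned to 0.12 with array spread as a covariate and to 0.39 without the 4 arrays of narrowest spread. The wild-type call was lost, at -2.63 to -2.16, without any 1 of the 3 wild-type GV arrays, wild-type MII array 2 or 3, or any 1 of the 3 knockout GV arrays, and also after further quantile normalisation, at -2.17, and in the covariate fit, at -1.67. Rab27a, which docks secretory granules at the cell cortex, stood at 8.87, 9.07 and 9.10 in wild-type GV, 8.06, 7.90 and 8.90 in wild-type MII, 9.16, 8.66 and 8.62 in knockout GV and 8.30, 8.01 and 7.40 in knockout MII. The stages overlapped in wild type through MII array 3 and did not overlap in the knockout. Its changes, -0.72 (SE 0.32, limma adjusted p = 0.14) and -0.91 (SE 0.32, adjusted p = 0.0557), were not called. Without wild-type MII array 3 both were, at -1.03 and -0.91, and without knockout MII array 1 the knockout change was called at -1.11. Array weights also called the knockout change of Rab27a.

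Rab8a and Rab8b, paralogs with overlapping roles in vesicle delivery and cilium formation, went in opposite directions. Rab8b stood at 8.47, 8.98 and 8.51 in wild-type GV, 11.08, 10.44 and 10.62 in wild-type MII, 9.18, 8.93 and 8.28 in knockout GV and 10.80, 10.27 and 10.41 in knockout MII. All 6 MII arrays lay above all 6 GV arrays. Rab8b rose by 2.06 (SE 0.30, 4.18-fold, limma adjusted p = 0.000652) in wild type and by 1.69 (SE 0.30, 3.24-fold, adjusted p = 0.00207) in the knockout, and both calls held in every alternative run. Rab8a stood at 9.50, 8.76 and 9.69 in wild-type GV, 7.76, 7.74 and 8.71 in wild-type MII, 8.55, 8.54 and 8.66 in knockout GV and 6.63, 7.14 and 7.98 in knockout MII. The stages did not overlap within a genotype, although wild-type MII array 3, at 8.71, was above the 3 knockout GV arrays. Rab8a fell by 1.25 (SE 0.39, 2.37-fold, limma adjusted p = 0.0434) in wild type and by 1.33 (SE 0.39, 2.52-fold, adjusted p = 0.0287) in the knockout. The wild-type call of Rab8a was lost, at -1.25 to -1.06, without wild-type GV array 1 or 3, wild-type MII array 1 or 2, any 1 of the 3 knockout GV arrays or knockout MII array 2. It was lost too with trended and robust variances and with the comparison's own groups alone, both at -1.25, with array weights, at -0.92, after further quantile normalisation, at -0.84, in the covariate fit, at -1.51, and without the narrowest arrays, at -0.61. Its knockout call was lost, at -1.36 to -1.02, without any 1 of the 3 knockout GV arrays or knockout MII array 1 or 2, and also after further quantile normalisation, at -0.65, and in the covariate fit, at -1.81. The difference of the pair, Rab8b minus Rab8a in the same array, ran from -1.18 to 0.63 over the 6 GV arrays and from 1.91 to 4.17 over the 6 MII arrays, with no overlap. Of the 7 paralog pairs whose members both lay above the median gene, the other 6 overlapped between the stages. How often the difference of 2 other genes above the median gene separates the stages was not counted. The pair was singled out after its values were seen and its difference was not tested.

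**Figure D2:**
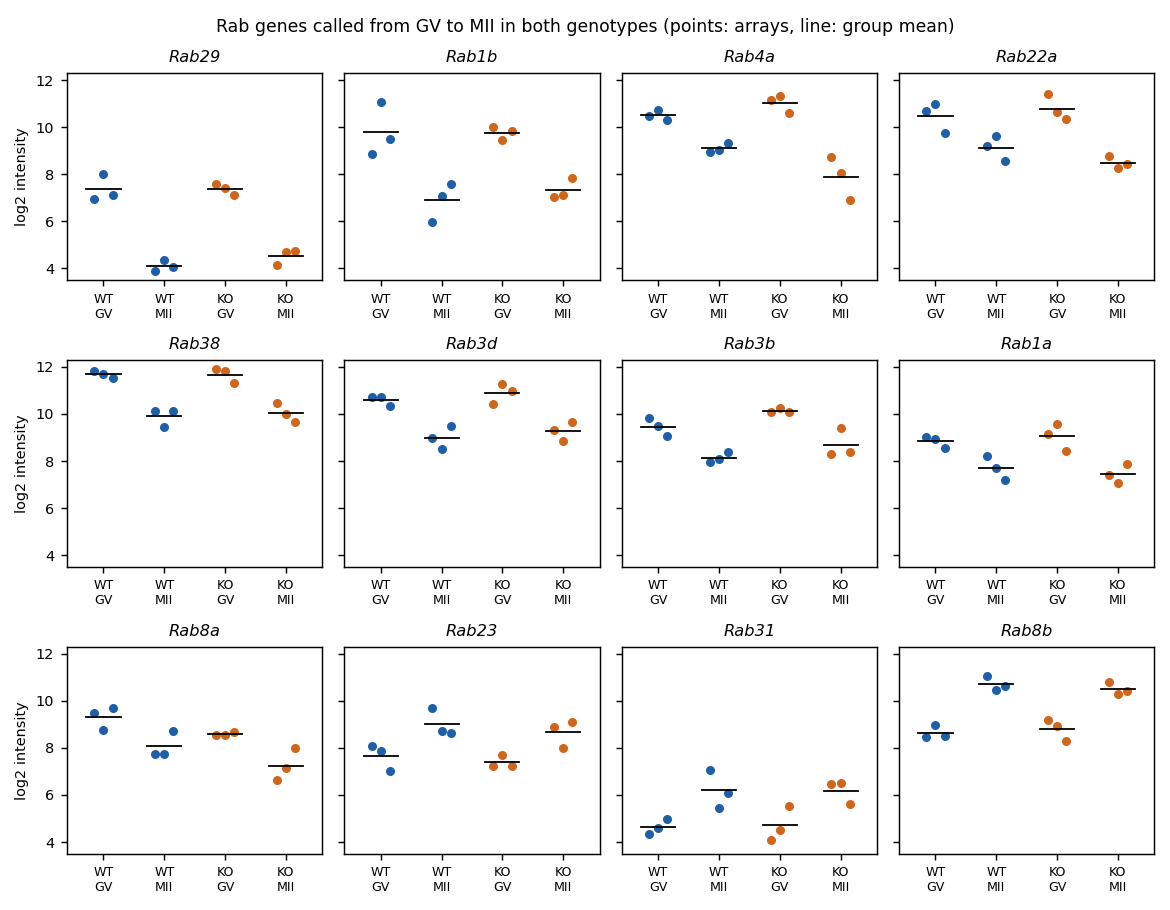
Log2 intensity (y axis) on each of the 12 arrays for the 12 Rab genes called from GV to MII in both genotypes; points are arrays, the line is the group mean, WT is wild type and KO is Areg -/-. Rab29 falls from 6.94 or above in the GV arrays to 4.74 or below in the MII arrays, and Rab8b goes from 9.18 or below to 10.27 or above.

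Recycling endosomes return membrane to the cell surface, and of their 8 measured Rab genes 1 rose and 1 fell in wild type while 0 rose and 1 fell in the knockout. In wild type that is 12.5% each way, beside 8.97% of all genes higher and 12.6% lower. In the knockout it is 0% higher and 12.5% lower, beside 13% and 15.2%. Rab4a, which runs the fast recycling route, stood at 10.46, 10.73 and 10.31 in wild-type GV, 8.92, 9.04 and 9.31 in wild-type MII, 11.13, 11.30 and 10.59 in knockout GV and 8.73, 8.05 and 6.89 in knockout MII. The GV arrays all lay above the MII arrays, and the 3 knockout MII arrays were the lowest of all. Rab4a fell by 1.41 (SE 0.40, 2.65-fold, limma adjusted p = 0.0284) in wild type and by 3.12 (SE 0.40, 8.67-fold, adjusted p = 0.000334) in the knockout. The wild-type call was lost without wild-type GV array 1 or 2 or wild-type MII array 1 or 2, at -1.43 to -1.29, in the covariate fit, at -0.85, and without the narrowest arrays, at -1.19, while the knockout call held in every alternative run. The stage change of Rab4a differed between the genotypes by -1.71 (95% interval -2.96 to -0.46, unadjusted p = 0.012), which did not pass over all genes (limma adjusted p = 0.943). Its paralog Rab4b was uneven at MII, at 9.14, 4.72 and 8.17 in wild type and 5.33, 4.61 and 7.97 in the knockout, and its changes of -1.89 (SE 1.05, adjusted p = 0.232) and -3.01 (SE 1.05, adjusted p = 0.0528) were not called.

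Rab14, which moves cargo between the Golgi and endosomes, was the recycling gene that rose. It stood at 10.97, 11.15 and 10.63 in wild-type GV, 12.22, 11.81 and 11.98 in wild-type MII, 11.19, 11.01 and 11.13 in knockout GV and 12.0015, 12.0459 and 11.2754 in knockout MII. All MII arrays lay above all GV arrays, by the least in knockout MII array 3. Rab14 rose by 1.09 (SE 0.26, 2.13-fold, limma adjusted p = 0.0117) in wild type, and the knockout change of 0.66 (SE 0.26, adjusted p = 0.0751) was not called. It was called without knockout MII array 3, at 0.91, with array weights, at 0.69, and after the further quantile normalisation, at 1.00. Without the narrowest arrays the wild-type call of Rab14 was lost, at 1.07.

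Rab11a, the slow recycling GTPase that mouse oocytes use to position the spindle, was not called. It stood at 11.05, 11.24 and 10.99 in wild-type GV, 11.63, 9.86 and 10.96 in wild-type MII, 11.08, 11.94 and 10.71 in knockout GV and 10.93, 11.23 and 10.50 in knockout MII. The stages overlapped in both genotypes, and wild-type MII array 2 was the lowest. Its changes were -0.28 (95% interval -1.25 to 0.69, limma adjusted p = 0.68) and -0.36 (-1.33 to 0.61, adjusted p = 0.532). The wild-type change turned to 0.20 without wild-type MII array 2, and array spread as a covariate turned the changes to 0.18 and 0.45. Rab11b, its paralog, had low signal, at 4.07, 4.98 and 4.44 in wild-type GV, 4.25, 4.32 and 4.18 in wild-type MII, 4.59, 4.08 and 4.03 in knockout GV and 4.30, 4.93 and 4.88 in knockout MII. The stages overlapped, and its changes of -0.25 (SE 0.29, limma adjusted p = 0.569) and 0.47 (SE 0.29, adjusted p = 0.218) were not called.

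Rab35, which acts in fast recycling and in cell division, was also uncalled. It stood at 9.07, 9.51 and 9.04 in wild-type GV, 9.07, 10.60 and 8.97 in wild-type MII, 9.82, 9.58 and 9.29 in knockout GV and 8.5757, 7.9996 and 9.2996 in knockout MII. The stages overlapped in both genotypes, and wild-type MII array 2 was the highest of the 12. The wild-type change was 0.34 (SE 0.45, limma adjusted p = 0.616) and turned to -0.19 without wild-type MII array 2, and the knockout change was -0.94 (SE 0.45, adjusted p = 0.125).

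Early endosomes receive what the cell takes up, and of their 7 measured Rab genes 1 rose and 1 fell in wild type while 1 rose and 3 fell in the knockout. In wild type that is 14.3% each way, beside 8.97% of all genes higher and 12.6% lower. In the knockout it is 14.3% higher and 42.9% lower, beside 13% and 15.2%. Rab5a, the best known Rab of early endosomes, and Rab7 of late endosomes were not analysed here. Rab22a, which sorts endosomal cargo, stood at 10.68, 10.99 and 9.75 in wild-type GV, 9.18, 9.64 and 8.57 in wild-type MII, 11.40, 10.63 and 10.34 in knockout GV and 8.78, 8.27 and 8.41 in knockout MII. The GV arrays all lay above the MII arrays, closely so for wild-type GV array 3, at 9.75, and wild-type MII array 2, at 9.64. Rab22a fell by 1.34 (SE 0.40, 2.54-fold, limma adjusted p = 0.0337) in wild type and by 2.30 (SE 0.40, 4.92-fold, adjusted p = 0.002) in the knockout. Its wild-type call was lost, at -1.37 to -1.06, without wild-type GV array 1 or 2 or wild-type MII array 1 or 3. It was lost too with the comparison's own groups alone, at -1.34, and after further quantile normalisation, at -1.11. The covariate fit and the fit without the narrowest arrays called Rab22a in neither genotype, at -1.03 and -1.91 in wild type and -1.75 and -2.01 in the knockout. Rab31, a close relative of Rab22a that works between the Golgi and endosomes, moved the other way. It stood at 4.34, 4.60 and 4.96 in wild-type GV, 7.07, 5.46 and 6.09 in wild-type MII, 4.09, 4.52 and 5.54 in knockout GV and 6.45, 6.49 and 5.62 in knockout MII. The stages did not overlap within a genotype, though knockout GV array 3, at 5.54, lay above wild-type MII array 2. Rab31 rose by 1.57 (SE 0.47, 2.97-fold, limma adjusted p = 0.0338) in wild type and by 1.47 (SE 0.47, 2.78-fold, adjusted p = 0.0383) in the knockout. The wild-type call was lost without wild-type GV array 1 or 2 or wild-type MII array 1 or 3, at 1.14 to 1.63. The knockout call was lost without wild-type GV array 2, knockout GV array 1 or 2 or knockout MII array 1 or 2, at 1.16 to 1.47. With the replicate number as a block neither passed, with limma adjusted p = 0.0524 and 0.0531. Rab31 passed in neither genotype after further quantile normalisation, at 1.53 and 1.44, in the covariate fit, at 1.64 and 1.59, or without the narrowest arrays, at 1.46 and 1.74, and the knockout call was also lost with the comparison's own groups alone, at 1.47.

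Rab5c and Rab21, both of early endosomes, were called in the knockout alone. Rab5c, a paralog of Rab5a, went from 9.49 ± 0.55 to 7.76 ± 0.96 there (SD, n = 3), a fall of 1.73 (SE 0.57, 3.33-fold, limma adjusted p = 0.0435), beside 9.42 ± 0.51 and 8.09 ± 0.97 in wild type, a change of -1.33 (adjusted p = 0.127). The call of Rab5c did not hold when wild-type GV array 1 or 2, wild-type MII array 3, any knockout GV array or knockout MII array 2 or 3 was left out, at -1.99 to -1.20, and the change turned to 0.28 in the covariate fit. The call was lost too with the comparison's own groups alone, at -1.73, after further quantile normalisation, at -1.19, and without the narrowest arrays, at -0.93. Rab21, which carries integrins, went from 12.36 ± 0.23 to 11.40 ± 0.47 in the knockout, a fall of 0.96 (SE 0.26, 1.95-fold, limma adjusted p = 0.0192), beside 12.20 ± 0.12 and 11.63 ± 0.11 in wild type, a change of -0.57 (adjusted p = 0.146). Its call was lost without knockout GV array 1 or knockout MII array 2, at -0.83 to -0.72, with the comparison's own groups alone, at -0.96, in the covariate fit, at -0.39, and without the narrowest arrays, at -0.52. For both genes the 6 GV arrays lay above the 6 MII arrays. The difference between the genotypes was -0.41 for Rab5c (95% interval -2.18 to 1.37) and -0.39 for Rab21 (-1.20 to 0.41), and neither passed (limma adjusted p = 0.943 for Rab21 and 0.959 for Rab5c).

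Late endosomes, lysosomes and the granules related to them have 10 measured Rab genes, of which 2 fell and 0 rose in wild type while 3 fell and 1 rose in the knockout. In wild type that is 20% lower and 0% higher, beside 12.6% and 8.97% of all genes. In the knockout it is 30% lower and 10% higher, beside 15.2% and 13%. Rab29, a partner of the kinase LRRK2 at the Golgi and lysosome, had the lowest adjusted p of all Rab genes in both genotypes. It stood at 6.94, 7.99 and 7.13 in wild-type GV, 3.91, 4.34 and 4.06 in wild-type MII, 7.58, 7.43 and 7.13 in knockout GV and 4.14, 4.70 and 4.74 in knockout MII. The GV arrays all lay above the median gene and the MII arrays all below it. Rab29 fell by 3.25 (SE 0.31, 9.52-fold, limma adjusted p = 7.21e-05) in wild type and by 2.86 (SE 0.31, 7.25-fold, adjusted p = 0.000125) in the knockout, and both calls held in every alternative that includes it, which leaves out the one over genes above the median gene. Rab38, which with its relative Rab32 builds melanosomes and other lysosome-related granules, stood at 11.84, 11.71 and 11.55 in wild-type GV, 10.11, 9.43 and 10.14 in wild-type MII, 11.89, 11.82 and 11.31 in knockout GV and 10.45, 9.99 and 9.64 in knockout MII. The stages were apart in all 12 arrays. Rab38 fell by 1.80 (SE 0.29, 3.49-fold, limma adjusted p = 0.00131) in wild type and by 1.65 (SE 0.29, 3.13-fold, adjusted p = 0.00221) in the knockout. The wild-type call held in every alternative run, and the knockout call was lost in the covariate fit, at -0.76 (limma adjusted p = 0.191), and without the narrowest arrays, at -1.22 (adjusted p = 0.0518).

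Rab12 and Rab7b were called in the knockout alone. Rab12, which sends receptors to lysosomes, went from 8.80 ± 0.09 to 7.67 ± 0.40 there (SD, n = 3), a fall of 1.13 (SE 0.37, 2.19-fold, limma adjusted p = 0.0441), beside 8.37 ± 0.79 and 8.64 ± 0.33 in wild type, a change of 0.27 (adjusted p = 0.633). The wild-type change turned to -0.17 without wild-type GV array 3. The knockout call was lost without wild-type GV array 1, wild-type MII array 3 or any 1 of the 6 knockout arrays, at -1.28 to -0.90. It was lost too with trended and robust variances, at -1.13, after further quantile normalisation, at -0.46, in the covariate fit, at -0.20, and without the narrowest arrays, at -0.97. The genotypes' stage changes differed by -1.40 (95% interval -2.56 to -0.24, unadjusted p = 0.0226), which did not pass over all genes (limma adjusted p = 0.943). Rab7b, which works between endosomes and the Golgi, had low signal and went from 4.85 ± 0.29 to 5.61 ± 0.17 in the knockout, a rise of 0.77 (SE 0.24, 1.70-fold, limma adjusted p = 0.0335), beside 4.89 ± 0.17 and 5.57 ± 0.24 in wild type, a change of 0.68 (adjusted p = 0.0621). Its call was lost without knockout GV array 1 or 2 or knockout MII array 2 or 3, at 0.68 to 0.73, with the comparison's own groups alone, at 0.77, in the covariate fit, at 0.21, and without the narrowest arrays, at 0.57. The wild-type rise of Rab7b was called with array weights and after further quantile normalisation, at 0.63 to 0.71. Its 6 MII arrays lay above its 6 GV arrays. All genes not above the median gene had median changes of 0.27 in wild type and 0.46 in the knockout.

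Among the 5 other members Rab23, an inhibitor of hedgehog signalling, rose in both genotypes. It stood at 8.08, 7.86 and 7.03 in wild-type GV, 9.69, 8.70 and 8.62 in wild-type MII, 7.25, 7.69 and 7.24 in knockout GV and 8.88, 8.01 and 9.09 in knockout MII. The stages did not overlap within a genotype, though wild-type GV array 1, at 8.08, lay above knockout MII array 2, at 8.01. Rab23 rose by 1.35 (SE 0.40, 2.55-fold, limma adjusted p = 0.0328) in wild type and by 1.27 (SE 0.40, 2.41-fold, adjusted p = 0.0372) in the knockout. The wild-type call was lost without wild-type GV array 2 or 3 or wild-type MII array 1, at 1.00 to 1.45. The knockout call was lost without any 1 of the 3 knockout GV arrays or knockout MII array 1 or 3, at 1.05 to 1.41. Both calls of Rab23 were lost with trended and robust variances, at 1.35 and 1.27, and without the narrowest arrays, at 0.96 and 1.49. The wild-type call was also lost with the comparison's own groups alone, at 1.35, and the knockout call in the covariate fit, at 2.08.

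Neither genotype called 32 Rab genes, 13 of them above the median gene and 19 not. Their changes ran from -1.89 to 1.25 in wild type and from -3.01 to 1.28 in the knockout. Besides Rab11a those of highest signal were Rab10, which delivers vesicles to the cell surface, and Rab2a, which acts between the Golgi and the ER. Rab10 changed by 0.74 in wild type (SE 0.33, limma adjusted p = 0.134) and by -0.19 in the knockout (SE 0.33, adjusted p = 0.665), and the latter turned to 0.17 without knockout MII array 3 and to 0.27 after the further quantile normalisation. The wild-type rise of Rab10 was called with array weights, after further quantile normalisation and in the covariate fit, at 0.77 to 1.21. Rab2a changed by 0.19 in wild type (SE 0.30, limma adjusted p = 0.68) and by -0.69 in the knockout (SE 0.30, adjusted p = 0.0967). The knockout change of Rab2a was called at -0.97 without knockout MII array 1 and at -0.79 with array weights. Calls were also counted by signal. Among the 30 Rab genes above the median gene 9 fell and 5 rose in wild type and 11 fell and 2 rose in the knockout, while over all genes above the median 23.2% fell and 15.3% rose in wild type and 27.8% fell and 14.2% rose in the knockout. Their median change was -0.29 in wild type and -0.95 in the knockout, beside -0.15 and -0.33 over all such genes. Among the 24 Rab genes of lower signal 1 fell and 1 rose in wild type and 1 fell and 4 rose in the knockout, so 4.17% and 4.17%, and 4.17% and 16.7%, beside 2.03% and 2.62%, and 2.64% and 11.8%, of all genes not above the median. The median change of these 24 was 0.25 in wild type and 0.47 in the knockout, beside 0.27 and 0.46 over all such genes.

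**Figure D3:**
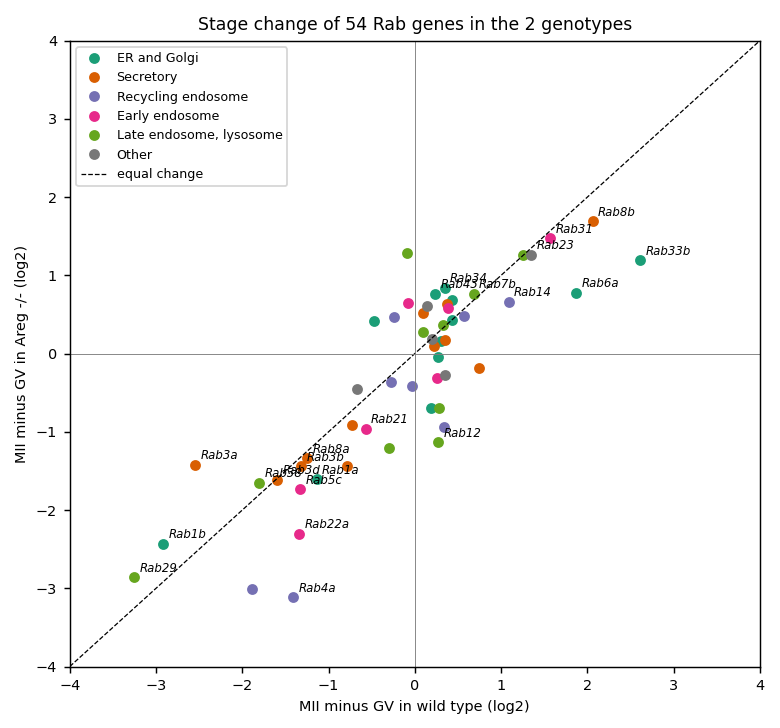
Change from GV to MII (log2) of each of the 54 Rab genes in wild type (x axis) against Areg -/- (y axis), coloured by compartment, with genes called in either genotype named and the line of equal change dashed. Points run along the line, 42 of 54 with the same sign; Rab4a lies below it at -1.41 and -3.12, and Rab33b at 2.62 and 1.20.

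The genotypes themselves were compared at each stage, and no Rab gene passed. At GV 0 of 54 Rab genes were called, where 0% of all genes were, and the lowest adjusted p was 0.928 (limma). At MII 0 of 54 were called, where 0.0603% of all genes were (0.00603% higher and 0.0543% lower in the knockout), and the lowest adjusted p was 0.573 (limma). For the difference in stage change 0 of 54 were called, where 0% of all genes were, and the lowest adjusted p was 0.943 (limma). The alternatives run for these 3 comparisons also called 0 Rab genes each. At an unadjusted p under 0.05 there were 3 Rab genes at GV, 3 at MII and 3 in the difference, beside 3.55%, 6.18% and 4.66% of all genes. At GV these were Rab33a (-0.95), Rab33b (1.24) and Rab28 (0.76), at MII Rab4a (-1.20), Rab32 (-1.12) and Rab12 (-0.97), and in the difference Rab4a (-1.71), Rab12 (-1.40) and Rab33a (0.90), each as knockout minus wild type. The 3 comparisons share arrays, so a gene listed under more than 1 of them is not seen more than once independently. The intervals show what 3 arrays a group can tell: for Rab29 the genotype difference was 0.03 at GV (95% interval -0.65 to 0.71) and 0.42 at MII (-0.25 to 1.10), and for Rab11a it was 0.15 (-0.82 to 1.12) and 0.07 (-0.90 to 1.04). The wild type alone called 4 Rab genes, Rab3a, Rab6a, Rab14 and Rab33b, where 5.27% of all genes were called in wild type alone. The knockout alone called 6, Rab5c, Rab7b, Rab12, Rab21, Rab34 and Rab43, where 11.9% of all genes were called in the knockout alone. None of these 10 passed the test of the difference between genotypes.

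Genes that act on Rab proteins were counted over lists of their known members. The counts stand beside 8.97% of all genes higher and 12.6% lower in wild type, 13% higher and 15.2% lower in the knockout, and all-gene median changes of 0.20 and 0.30. The median member of each list lay above the median gene, at the 63.35 to 72.97 percentile. Of all genes above the median gene 23.2% fell and 15.3% rose in wild type, and 27.8% and 14.2% in the knockout. Their median changes were -0.15 and -0.33. The part of signal level in the list counts was not tested. Of 8 genes for lipid attachment and cytosolic recycling of Rab proteins, 3 fell and 0 rose in wild type and 4 fell and 0 rose in the knockout (37.5% and 50% lower), with median changes of -0.43 and -1.30. Rabggtb, the catalytic subunit of the enzyme that attaches the lipid tail, fell by 2.36 (SE 0.54, limma adjusted p = 0.00889) in wild type and by 2.04 (SE 0.54, adjusted p = 0.0179) in the knockout, the latter call being lost without knockout GV array 1 or 3, at -2.05 to -1.93, after further quantile normalisation, at -1.39, and in the covariate fit, at -1.58, which also lost the wild-type call, at -2.10. Rabac1, a membrane receptor for Rab proteins, fell by 2.78 (SE 0.48, limma adjusted p = 0.00194) and by 3.08 (SE 0.48, adjusted p = 0.00105). Gdi2, a GDI, fell by 1.51 (SE 0.30, limma adjusted p = 0.0046) and by 1.73 (SE 0.30, adjusted p = 0.00215). The wild-type calls of both were lost without the narrowest arrays, at -2.04 for Rabac1 and -0.96 for Gdi2, and the knockout calls in the covariate fit, at -2.78 and -1.13. The genotype comparisons and the difference in stage change called 0 of these 8 genes.

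Of 45 GEF genes, including subunits of the TRAPP complexes, 5 rose and 5 fell in wild type and 3 rose and 9 fell in the knockout, with median changes of -0.17 and -0.52. These were 11.1% higher and 11.1% lower in wild type and 6.67% and 20% in the knockout, beside 8.97% and 12.6%, and 13% and 15.2%, of all genes. Dennd6a, a GEF for Rab14, rose by 1.85 in wild type and 3.09 in the knockout, and Ric1, part of the GEF for Rab6a, rose by 1.88 and 1.99. Dennd1b, a GEF for Rab35, rose by 1.42 and 0.93. Trappc2l and Trappc5, TRAPP subunits, fell by 3.51 and 3.85 and by 1.62 and 2.36, and Mon1a, part of the GEF for Rab7, fell by 2.36 and 3.17. Limma adjusted p for these 6 genes ran from 0.00265 for Mon1a to 0.0295 for Dennd6a in wild type and from 0.000281 for Trappc5 to 0.0389 for Dennd1b in the knockout. Calls lost when a single array was left out were, in wild type, Dennd6a without GV array 3 or MII array 1 or 3 (1.22 to 1.86), Ric1 without the same arrays (1.59 to 1.73) and Trappc2l without GV array 1 or 2 (-3.38 to -3.34). In the knockout they were Ric1 without GV array 2 (1.65) and Dennd1b without wild-type GV array 1 or 2, knockout GV array 1 or 3 or knockout MII array 2 or 3 (0.77 to 0.96). The wild-type calls of Dennd6a, at 2.42, and Ric1, at 2.16, were also lost without the narrowest arrays, and that of Dennd6a with the comparison's own groups alone, at 1.85. The knockout call of Trappc2l was lost in the covariate fit, at -5.13, and that of Dennd1b with the comparison's own groups alone, at 0.93, after further quantile normalisation, at 0.69, in the covariate fit, at 1.16, and without the narrowest arrays, at 0.73. The calls of Mon1a and Trappc5 held in every alternative run in both genotypes.

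Of 35 genes with a TBC domain or otherwise counted as GAPs, 6 rose and 4 fell in wild type and 10 rose and 7 fell in the knockout, with median changes of 0.29 and 0.46. These were 17.1% higher and 11.4% lower in wild type and 28.6% and 20% in the knockout, beside 8.97% and 12.6%, and 13% and 15.2%, of all genes. Tbc1d15, a GAP for Rab7, rose by 1.58 and 1.36, and Tbc1d23, a Golgi protein that captures vesicles, rose by 2.40 and 2.43, and these calls held in every alternative run. Tbc1d32, which is needed for cilia, rose by 3.30 and 2.74. Tbc1d10b, a GAP for Rab35 among others, fell by 4.20 and 2.73, Tbc1d25, a GAP for Rab33b, fell by 2.56 and 2.57, and Sgsm1 fell by 1.88 and 1.75. Their limma adjusted p ran from 0.000288 for Tbc1d15 to 0.0131 for Sgsm1 in wild type and from 0.000643 for Tbc1d15 to 0.0183 for Tbc1d32 in the knockout. The knockout call of Tbc1d32 was lost without knockout GV array 2 or 3 or knockout MII array 3 (2.01 to 2.60). That of Sgsm1 was lost without knockout GV array 1 or 3 or knockout MII array 2 (-1.69 to -1.36), and its wild-type call without wild-type GV array 2 (-1.73). Both calls of Sgsm1 were also lost after further quantile normalisation (-1.62 and -1.47), in the covariate fit (-1.90 and -1.79) and without the narrowest arrays (-1.88 and -1.84), and its knockout call with the mean of its probe sets (-1.45). The fit without the narrowest arrays lost both calls of Tbc1d32 (3.19 and 2.25). The covariate fit lost the knockout calls of Tbc1d32 (2.83), Tbc1d10b (-1.38) and Tbc1d25 (-3.54).

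Of 49 effector genes 6 rose and 4 fell in wild type and 7 rose and 8 fell in the knockout, with median changes of 0.08 and -0.12. These were 12.2% higher and 8.16% lower in wild type and 14.3% and 16.3% in the knockout, near the 8.97% and 12.6%, and 13% and 15.2%, of all genes. Acap2, an effector of Rab35, rose by 2.59 and 2.18, and Sytl4, an effector of Rab27a on secretory granules, rose by 1.96 and 1.84, and these calls held in every alternative run. Osbpl1a, a lipid-binding effector of Rab7, rose by 3.00 and 1.81. Optn and Rilpl1, effectors of Rab8 proteins, fell by 1.86 and 2.02 and by 1.76 and 2.55, and Plekhm1, an effector of Rab7, fell by 2.04 and 1.80. Their limma adjusted p ran from 0.000224 for Sytl4 to 0.0136 for Rilpl1 in wild type and from 0.000276 for Sytl4 to 0.0387 for Osbpl1a in the knockout. The knockout call of Osbpl1a was lost without wild-type GV array 2, knockout GV array 2 or knockout MII array 1 or 3 (1.09 to 1.81), and that of Plekhm1 without knockout GV array 1 or knockout MII array 3 (-1.53 to -1.49). The wild-type call of Rilpl1 was lost without wild-type GV array 1 or 2 (-1.65 to -1.33). The covariate fit also lost both calls of Rilpl1 (-1.36 and -1.84) and the knockout calls of Plekhm1 (-0.14), Optn (-1.83) and Osbpl1a (2.12). The fit without the narrowest arrays lost both calls of Rilpl1 (-1.83 and -2.58), Plekhm1 (-1.49 and -0.93) and Osbpl1a (2.82 and 2.38). The knockout call of Osbpl1a was also lost with the comparison's own groups alone (1.81) and with array weights (1.78).

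For comparison, of 22 genes of the Arf and Arl family, GTPases of vesicle coats and the Golgi, 1 rose and 3 fell in wild type and 3 rose and 3 fell in the knockout. These were 4.55% higher and 13.6% lower in wild type and 13.6% and 13.6% in the knockout, beside 8.97% and 12.6%, and 13% and 15.2%, of all genes. The GEF, GAP, effector and Arf lists, like the Rab genes, had 0 members called between the genotypes or in the difference in stage change.

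**Figure D4:**
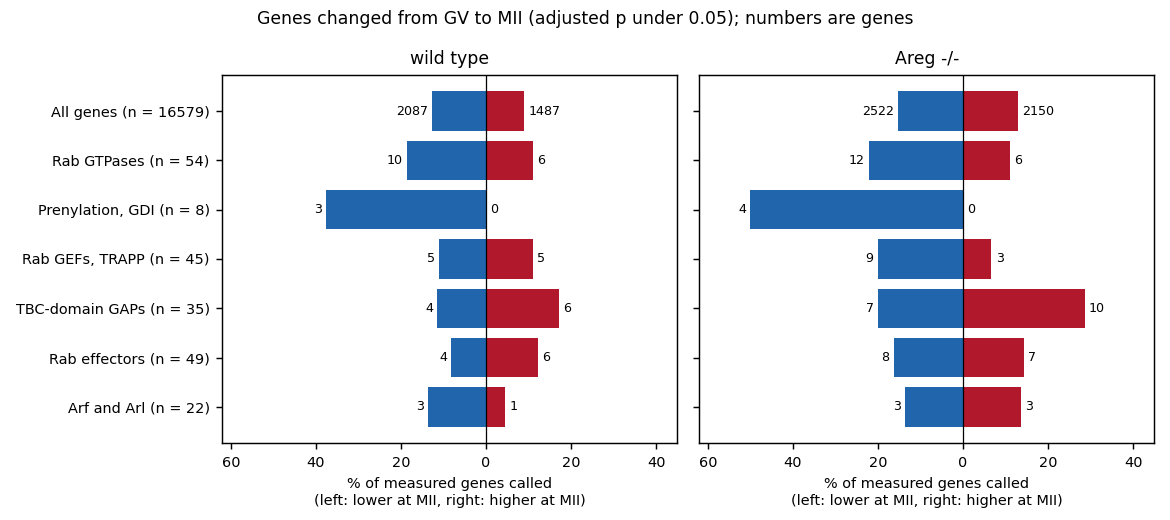
Share of the measured genes of each list (x axis, in percent) lower (left of 0) and higher (right of 0) at MII than at GV with an adjusted p under 0.05, in wild type and Areg -/-, with the number of genes at each bar. The Rab bars, at 10 and 6 genes in wild type and 12 and 6 in the knockout, reach 18.5% and 11.1%, and 22.2% and 11.1%, beside 12.6% and 8.97%, and 15.2% and 13%, of all genes.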

How the data were processed

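The authors deposited log2 intensities of each probe set on each array, made with RMA, per the submitters' processing notes, which name no version. RMA normalises between arrays, so a change is relative to the other transcripts. Per the labels' protocols, polysome-bound mRNA was purified and amplified with a NuGEN WT-Ovation kit. The molecule field names total RNA and a description field names embryos, and these were not followed. Of 23950 probe sets, 64 were controls and 23886 carried a RefSeq name, of which 21230 matched 1 symbol of the RefSeq table for GRCm38.p6 and 2656 matched none. This gave 16579 genes. RefSeq has 59 symbols of the Rab pattern, and Rab5a, Rab7, Rab36, Rab42 and Rab44 were not analysed here. Of the 8 Rab genes with more than 1 probe set 7 had identical values in them, and those of Rab37 differed by up to 0.49. There were 0 unused sample columns and 0 pairs of identical arrays, and array medians lay between 5.61 and 5.79.

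All 12 arrays entered 1 limma fit (limma 3.58.1, R 4.3.3, lmFit and eBayes) with a mean per group, and tests were two-sided. The number of arrays limits the precision. The fit was tested on simulated data. Named were the Rab genes called in either genotype, a fixed set (Rab3a, Rab6a, Rab8a, Rab11a, Rab11b, Rab14, Rab27a, Rab35), the 3 uncalled ones of highest signal, and of each machinery list the 3 genes with the largest rise and fall among those called in both genotypes. The members, roles and lists were chosen with earlier results of these data known. Rab28, Rab32, Rab33a and Rab4b were named after their values were seen.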

Additional observations from a re-analysis of the deposited data

How the results depend on the processing

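The alternatives were limma with trend and robust variances, the groups of a comparison alone, array weights, a further quantile normalisation, array spread as a covariate, genes above the median gene, the mean of a gene's probe sets, the replicate block, leaving out the 4 arrays of narrowest spread and leaving out each array. Without the 4 narrowest arrays each MII group kept 1 array, which is assumed to vary like the others. The wild-type count of 16 Rab genes moved to 10 with array spread as a covariate and to 4 without the 4 narrowest arrays, and ran from 9 to 16 when single arrays were left out. The knockout count of 18 moved to 3 and 8 under the same settings and ran from 10 to 20. Array weights gave 18 and 25. The counts of all genes called under the alternatives are not given here. Whether Rab genes lost or gained calls more than other genes therefore cannot be read from these counts. With the covariate the median change of all genes was -0.03 and -0.04. Signs turned with the covariate for Rab11a (0.18 in wild type, 0.45 in the knockout), Rab5c (0.28), Rab10 (0.64) and Rab3a (0.12) in the knockout. After further quantile normalisation they turned for Rab10 (0.27) and Rab11a (0.0017) in the knockout. With array weights they turned for Rab12 (-0.040) and Rab35 (-0.018) in wild type. Without the 4 narrowest arrays they turned for Rab35 in wild type (-0.24) and for Rab10 (0.51) and Rab3a (0.39) in the knockout. When single arrays were left out, the change ran from -0.68 to 0.20 for Rab11a, from -0.17 to 0.59 for Rab12 and from -0.19 to 0.63 for Rab35 in wild type, and from -0.53 to 0.17 for Rab10 in the knockout. The causes were not tested. The counts for the genotype comparisons and the difference in stage change were 0 in every setting.

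Replicate numbers recur in the 4 groups. Deviations from the group means correlated at r from -0.12 to 0.26 for samples of the same number. For samples of different number r ran from -0.27 to 0.23. The same number was the best match in 9 of 18 comparisons. Samples numbered 1 correlated at 0.14 to 0.19 in every pair of groups. Whether samples of a number were handled together was not tested, and the numbers were not taken as pairs. With the replicate block the counts were 16, of which 15 were among the 16 called without it, and 20, of which 16 were among the 18, in wild type and the knockout, and 0 in the genotype comparisons.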
